A study of Mus musculus with 4 samples.

Results

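The 10 genes described here, Syp, Syt1, Snap25, Cplx1, Cplx2, Stx1a, Vamp2, Syn1, Syn2 and Sv2a, encode proteins of the synaptic vesicle and of the machinery that fuses it with the presynaptic membrane. They were taken as a fixed list of names, chosen with earlier results of these data known. Their counts beside all genes or other lists are therefore descriptions and no independent support. Every probe set that the array's annotation gives to 1 of these genes and to no other gene was read on all 4 arrays. That gave 26 probe sets for the 10 genes, of 34945 probe sets that name 1 gene and 18193 genes in all, and 0 further probe sets named a member together with another gene. RNA came from mouse embryonic stem cells of 2 genotypes, Snai1 knockout (KO) and the F/F control. Snai1 is a zinc finger repressor of epithelial genes. The groups were KO teratoma and F/F teratoma, collected at 6 weeks from the hind limbs of male nude mice that were 6 weeks old when injected, and KO embryoid bodies and F/F embryoid bodies, grown from hanging drops into suspension and collected on day 5. Each group had 1 array, so the values below have no replicate check and carry no test or p-value. Per the labels' protocols, teratoma RNA was extracted with Trizol and embryoid body RNA on columns. Tissue, time, host cells and extraction therefore cannot be told apart in any comparison of teratomas with embryoid bodies. Nude mice lack a thymus but keep vessels, stroma and nerves that can contribute RNA to a tumour. The labels do not state how the knockout was made, which stem cell line or how many clones were used, or whether tumours were pooled.

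Neurons release transmitter when a vesicle fuses with the plasma membrane after calcium enters the nerve ending. The vesicle SNARE protein zips together with a pair of SNARE proteins on the target membrane, complexins hold and assist that complex, and synaptotagmin senses the calcium. Other proteins of the vesicle membrane and coat control how vesicles form, cluster and refill. Several of these genes are also used by endocrine cells, which release hormones by the same kind of fusion.

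Values are deposited log2 expression levels. Such levels have no true zero, so a floor was set on each array at the median of its probe sets, at 5.04 on the KO teratoma array, 5.08 on the F/F teratoma array, 4.73 on the KO embryoid body array and 4.71 on the F/F embryoid body array. A reading under the floor was raised to it, a difference with 1 reading under the floor is a bound, and no difference is given where both readings lay under it. The line for counting a gene as higher or lower was 2-fold, a log2 difference of 1. Where a gene has several probe sets, its value is that of the one brightest on average across the arrays. Levels of different probe sets cannot be set against each other, so the members are not ranked by level. Snai1 itself read 3.44 in the KO teratoma, 3.59 in the F/F teratoma, 3.46 in KO embryoid bodies and 4.78 in F/F embryoid bodies. Only the F/F embryoid body reading lay above its floor, so the probe set checks the genotype labels weakly, and whether it lies in the deleted stretch is not given. The tissue labels were checked against marker genes. All 9 pluripotent and germ layer genes on the array were above the floor in both kinds of embryoid body, with a mean level of 6.19 in the KO teratoma, 6.31 in the F/F teratoma, 8.19 in KO embryoid bodies and 7.75 in F/F embryoid bodies. The 12 genes of mature tissues averaged 7.59 in the KO teratoma and 7.82 in the F/F teratoma, against 5.53 in KO and 5.63 in F/F embryoid bodies. Of those 12, the cartilage gene Acan and the keratin gene Krt20 lay below the floor on all 4 arrays. Some markers went against their list. The gut gene Vil1 lay below the floor in both teratomas and was at least 5.89-fold lower in the KO teratoma than in KO embryoid bodies and at least 5.51-fold lower in the F/F pair, and the cartilage collagen gene Col2a1 was 2.54-fold lower in the KO teratoma than in KO embryoid bodies. Of the embryoid body markers, Afp, Nanog and Zfp42 were higher in the KO teratoma than in KO embryoid bodies, by log2 differences of 0.66, 0.22 and 0.40.

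All 10 genes were above the floor in both teratomas, which 65.3% of all genes reached in the KO and 65% in the F/F teratoma. All 10 were higher in the KO than in the F/F teratoma, as were 7025 of the 12197 genes measured there. Of the 10, 7 passed 2-fold (Syp, Syn1, Cplx1, Snap25, Vamp2, Sv2a and Syt1), with a median log2 difference of 1.20 and a range of 0.21 to 1.86. With the mean of each gene's probe sets the count was 4 of 10, since Syp then stood at 0.702, Snap25 at 0.988 and Syt1 at 0.997. The share of all genes past 2-fold upward was then 2.41%. With 1 probe set used per gene, 3.25% of all 12197 genes measured in the teratomas passed 2-fold upward in the KO. The downward share was 1.07%, and the median was 0.06. In embryoid bodies 0 of 6 measured members passed 2-fold in either direction, and the other 4 lay below the floor on both arrays. On the probe set used for each gene, all 10 were higher in teratomas than in embryoid bodies in both genotypes. Of all measured genes, 5718 of 12936 were higher in the teratoma in the KO and 5499 of 12956 in the F/F. In bulk RNA of this kind, more cells of a type and more RNA per cell cannot be told apart.

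**Figure D1:**
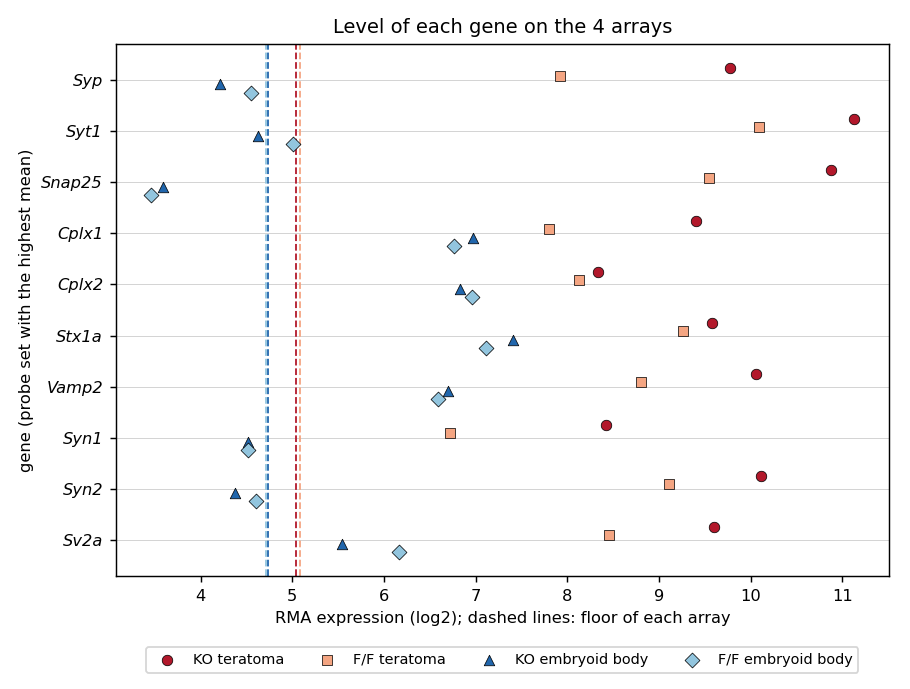
Level of each of the 10 genes (rows) on each of the 4 arrays, as log2 expression on the horizontal axis, with 1 point per array and a dashed line at each array's floor. All 10 KO teratoma points lie to the right of the F/F teratoma points, and both lie to the right of the embryoid body points, of which Syp, Snap25, Syn1 and Syn2 lie under the floor in both genotypes.

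The vesicle SNARE and the target-membrane SNAREs were read first, because they form the fusion complex. Snap25, a target-membrane SNARE, read 10.88 in the KO teratoma and 9.55 in the F/F teratoma, against 3.59 in KO and 3.46 in F/F embryoid bodies. It was 2.51-fold higher in the KO teratoma and was below the floor in both kinds of embryoid body. Its second probe set, 1447763_at, lay below the floor on all 4 arrays (4.34, 3.69, 2.90 and 2.67 in the same order) and gives no difference. Vamp2, the vesicle SNARE also called synaptobrevin, read 10.06 in the KO teratoma, 8.81 in the F/F teratoma, 6.70 in KO embryoid bodies and 6.59 in F/F embryoid bodies. It was above the floor on every array and 2.39-fold higher in the KO teratoma, with a log2 difference of 1.25. The second Vamp2 probe set, 1420833_at, read lower throughout, at 6.31 and 5.08 in the KO and F/F teratomas and 5.26 and 5.89 in KO and F/F embryoid bodies. Its teratoma difference of 1.23 was close to that of the first. Stx1a encodes syntaxin 1A, the partner of Snap25 on the target membrane. It read 9.58 in the KO teratoma, 9.26 in the F/F teratoma, 7.41 in KO embryoid bodies and 7.12 in F/F embryoid bodies. The KO teratoma was 1.25-fold higher, a log2 difference of 0.32, on a probe set with the shared-sequence suffix _x_at. The second Stx1a probe set, 1448366_at, which has no such suffix, gave 0.72. Neither probe set passed 2-fold.

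Syt1 encodes the calcium sensor for fast release, and its probe sets ranged from bright to barely above the floor. The main probe set read 11.13 in the KO teratoma, 10.09 in the F/F teratoma, 4.63 in KO embryoid bodies and 5.01 in F/F embryoid bodies, and the KO teratoma was 2.07-fold higher than the F/F teratoma. The other Syt1 probe sets were dimmer. Probe set 1431191_a_at read 7.73 in the KO and 6.94 in the F/F teratoma, a difference of 0.79. Probe set 1421990_at read 6.28 in the KO teratoma and 4.77 in the F/F teratoma, which lies below its floor, so the difference is at least 1.20. Probe set 1438282_at read 5.06 in the KO teratoma and 4.41 in the F/F teratoma. The first of these readings sits barely above its floor and the second below it, and the bound of -0.02 arises because the F/F array's floor is the higher of the pair.

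Complexins bind the assembled SNARE complex and regulate when it completes fusion. Cplx1 and Cplx2 are close relatives with largely neuronal expression. Cplx1 read 9.40 in the KO teratoma, 7.81 in the F/F teratoma, 6.98 in KO embryoid bodies and 6.76 in F/F embryoid bodies. That is 3.02-fold higher in the KO teratoma, on a probe set with the shared-sequence suffix _a_at. Cplx2 read 8.34 in the KO teratoma, 8.13 in the F/F teratoma, 6.83 in KO embryoid bodies and 6.96 in F/F embryoid bodies, a teratoma difference of 0.21, or 1.16-fold. The Cplx2 probe set used is a shared-sequence one (suffix _s_at). The other bright Cplx2 probe set, 1421477_at, read 9.33 in the KO and 8.85 in the F/F teratoma against 5.33 in KO and 5.38 in F/F embryoid bodies, so it gave a teratoma difference of 0.47. The third, 1436383_at, gave a bound of 0.91, with the F/F reading under the floor. For Cplx1 the second probe set, 1417746_at, gave 1.49, while the third, 1417747_at, gave 0.30 with readings of 6.20 in the KO and 5.90 in the F/F teratoma. The 3 Cplx1 probe sets therefore ranged from 0.30 to 1.60 and the 3 of Cplx2 from 0.21 to 0.91, and these ranges overlap. The spread between probe sets of the same gene in this comparison, over 4661 genes with more than 1 measured probe set, had a pooled SD of 0.28, which leaves out variation between tumours.

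Syp and Sv2a encode proteins of the vesicle membrane. Syp, for the abundant glycoprotein synaptophysin, read 9.77 in the KO teratoma, 7.92 in the F/F teratoma, 4.21 in KO embryoid bodies and 4.55 in F/F embryoid bodies. It was 3.62-fold higher in the KO teratoma and ranked 47 from the top of the 12197 measured genes. Its second probe set, 1456249_x_at, lay below the floor on all 4 arrays and gives no difference, and the mean of the 2 probe sets gave 0.702. Sv2a, a transporter-like glycoprotein found on most vesicles, read 9.60 in the KO teratoma and 8.46 in the F/F teratoma, against 5.54 in KO and 6.16 in F/F embryoid bodies. The KO teratoma was 2.22-fold higher, and all 4 readings were above the floor.

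Synapsins coat the vesicles and tether them to each other in a reserve pool. Syn1 read 8.43 in the KO teratoma, 6.73 in the F/F teratoma, 4.51 in KO embryoid bodies and 4.52 in F/F embryoid bodies. It was 3.25-fold higher in the KO teratoma, on the only probe set the annotation gives to it, which has the shared-sequence suffix _a_at. Syn2 read 10.11 in the KO teratoma, 9.11 in the F/F teratoma, 4.38 in KO embryoid bodies and 4.60 in F/F embryoid bodies. Its fold of 1.996 lay just short of the 2-fold line, with a log2 difference of 0.997. Of the 5 other Syn2 probe sets, 1449030_at gave 1.35, 1428460_at gave 0.95 and 1435511_at at least 1.46. The remaining pair, 1440762_at and 1458105_at, lay below the floor on all 4 arrays.

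Counted by probe set, 22 of the 26 were above the floor in at least 1 teratoma. Of those 22, 21 had a difference above 0 and 12 were at least 2-fold higher in the KO teratoma, with a median of 1.10. Among all 20442 measured probe sets, 11702 had a difference above 0 and the share at least 2-fold higher was 3.06%. The 1 probe set below 0 is 1438282_at of Syt1.

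**Figure D2:**
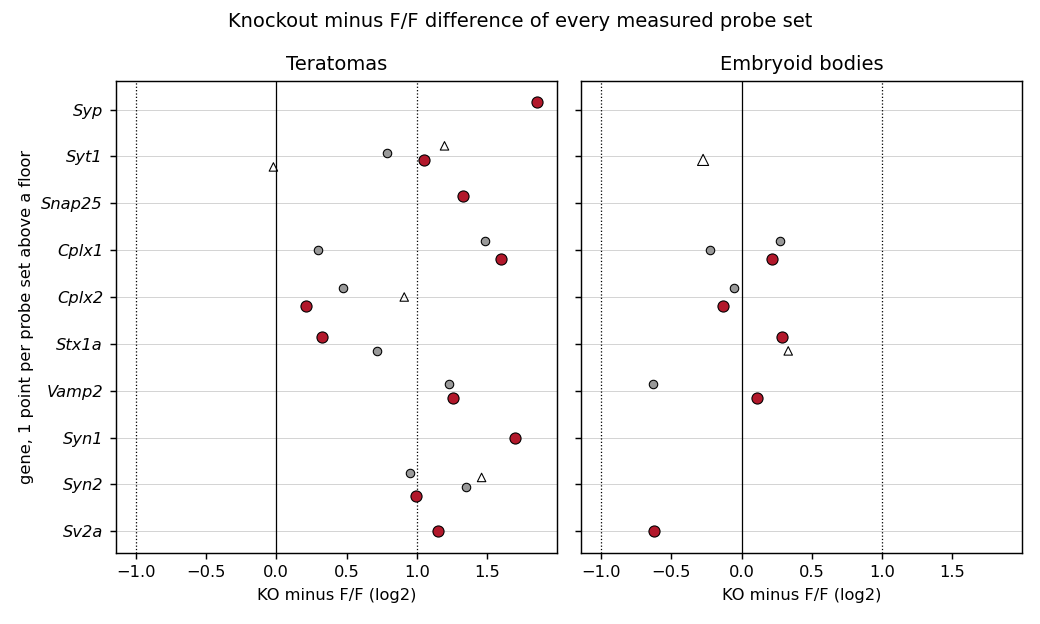
Log2 difference, KO minus F/F, for every measured probe set of the 10 genes (rows), in teratomas (left panel) and embryoid bodies (right panel), with the probe set that stands for the gene in red, the others in grey and bounds as open triangles. Dotted lines mark a 2-fold difference. In teratomas 12 of 22 points reach the upper line and the 2 points of Vamp2 lie at 1.23 and 1.25, and in embryoid bodies no point reaches either line.

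Measures of RNA quality and markers of several cell types also differed between the teratoma arrays. The 3' minus 5' signal of the Gapdh control probe sets, which grows as RNA degrades, was 0.40 on the KO and 0.65 on the F/F teratoma array, against 0.10 on the KO and 0.17 on the F/F embryoid body array. That of Actb was 0.85 on the KO and 1.03 on the F/F teratoma array, and 0.31 and 0.38 on the KO and F/F embryoid body arrays. Of markers of neurons in general (cytoskeletal and RNA-binding genes), 21 of 21 were measured in both teratomas, with a mean level of 10.77 in the KO and 10.34 in the F/F teratoma. Among them 3 were at least 2-fold higher in the KO teratoma, 0 lower and 2 below 0, with a median difference of 0.26. Over all genes the upward share was 3.25% and the median 0.06. The 3 past 2-fold were the neuronal enolase Eno2 at 1.83, the RNA-binding protein gene Rbfox3 (the antigen known as NeuN) at 1.40 and the heavy neurofilament gene Nefh at 1.34. Strongly expressed genes of that list did not pass 2-fold. The microtubule regulator Stmn3 read 12.60 in the KO and 12.33 in the F/F teratoma, Stmn2 read 12.13 in the KO and 11.87 in the F/F teratoma, and the neurofilament gene Nefl read 11.84 in the KO and 11.22 in the F/F teratoma. The general neuronal list thus had a median of 0.26 where the 10 synaptic genes had 1.20. With the mean of each gene's probe sets these medians were 0.389 and 0.993. Both lists were chosen with earlier results of these data known.

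Glial markers and endocrine granule genes included some past 2-fold, against 3.25% upward over all genes. Of 13 astrocyte and oligodendrocyte genes measured, 4 were at least 2-fold higher in the KO teratoma, 0 lower and 2 below 0, with a median of 0.80. The myelin gene Mobp differed by 2.18, the astrocyte filament gene Gfap by 1.44, S100b by 1.37 and the glutamate transporter Slc1a2 by 1.20. The mean level of the list was 9.14 in the KO and 8.42 in the F/F teratoma, and the late myelin gene Mog lay below the floor on all 4 arrays. Of 11 endocrine granule genes measured, 4 were at least 2-fold higher, 0 lower and 1 below 0, with a median of 0.85. Somatostatin, Sst, differed by 1.92, the granule membrane proteins Ptprn by 1.55 and Ptprn2 by 1.08, and chromogranin A, Chga, by 1.31. That list's mean level was 8.93 in the KO and 8.13 in the F/F teratoma, and the pancreatic hormone gene Gcg lay below the floor on all 4 arrays. Of 13 neural progenitor genes measured, 10 had a difference below 0, with a median of -0.27. Of these 0 passed 2-fold upward and 1 downward, the proneural factor gene Neurog2, which differed by -1.46. Markers outside the nervous system differed as well. The pluripotency genes Nanog and Pou5f1 differed by 1.53 and 1.31. The fetal liver and yolk sac gene Afp differed by -2.84, the embryonic muscle myosin gene Myh3 by -2.09, the stomach gene Tff1 by -1.83 and the endoderm factor gene Sox17 by -1.42. The part of RNA quality and of these cell types in the difference of the 10 genes was not tested.

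**Figure D3:**
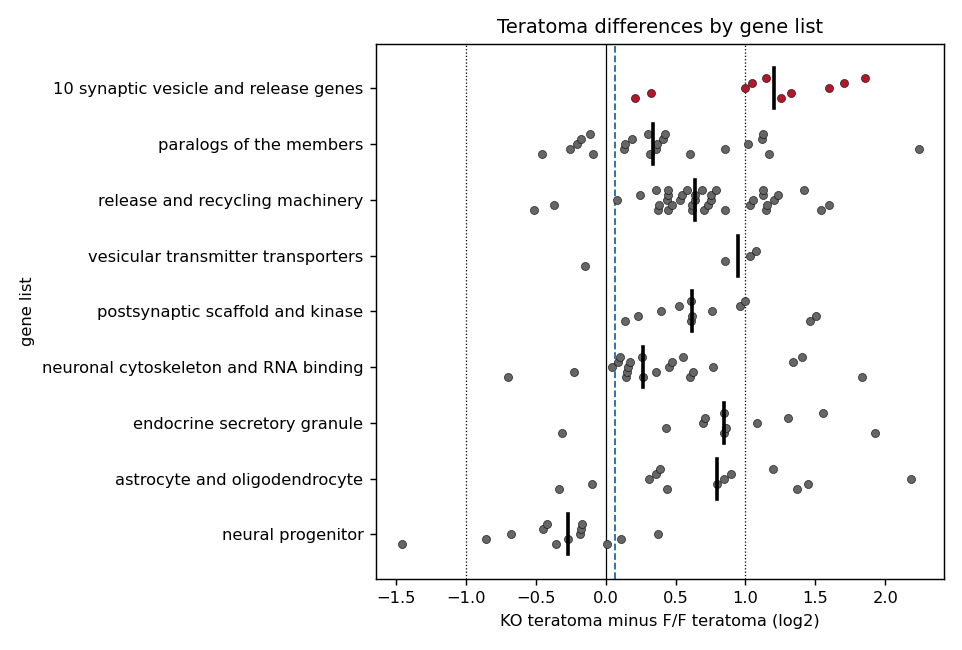
Log2 difference, KO teratoma minus F/F teratoma, for each measured gene of the 10 synaptic genes and of the other gene lists (rows), with a black bar at each list's median, a blue dashed line at the median of all measured genes and dotted lines at 2-fold. The bar of the 10 genes is at 1.20, that of general neuronal markers at 0.26 and that of neural progenitor genes at -0.27.

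Other proteins of the release pathway were read from lists. Of 38 genes on the array for docking, priming, the active zone and vesicle recycling, 37 were measured in the teratomas. In the KO teratoma 11 were at least 2-fold higher, 0 lower and 35 above 0, with a median of 0.64. Over all genes 3.25% passed 2-fold upward, 7025 of 12197 were above 0 and the median was 0.06. The vesicle protein synaptogyrin 1, Syngr1, differed by 1.60, and its relative Syngr3 by 1.20. Of the priming and active zone genes, Unc13a differed by 1.54, Ppfia2 by 1.23, Ppfia3 by 1.13 and Rims1 by 1.03. The Rab3 effector rabphilin, Rph3a, differed by 1.42, and the calcium-binding protein gene Doc2a by 1.15. Nsf and Napb, which take the SNARE complex apart after fusion, differed by 1.05 and 1.15, and the fission protein of vesicle retrieval, Dnm1, by 1.13. Some bright genes of the list did not pass 2-fold. The vesicle chaperone gene Dnajc5 read 11.29 in the KO and 10.85 in the F/F teratoma, and the lipid phosphatase gene Synj1 read 11.09 in the KO and 10.64 in the F/F teratoma. Rab3a, a vesicle GTPase, read 9.11 in the KO and 9.48 in the F/F teratoma.

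Of 6 vesicular transporter genes on the array, 4 were measured in the teratomas, of which 2 were at least 2-fold higher in the KO teratoma and 0 lower, with a median of 0.94. The upward share over all genes was 3.25%, with a median of 0.06. The vesicular glutamate transporter Slc17a6 read 10.82 in the KO and 9.74 in the F/F teratoma, a difference of 1.08. The vesicular GABA transporter Slc32a1 read 7.77 in the KO and 6.74 in the F/F teratoma, a difference of 1.03. Slc18a2, which loads monoamines, read 8.89 in the KO and 8.04 in the F/F teratoma and differed by 0.86. The other monoamine transporter, Slc18a1, read 4.72 in the KO teratoma, under its floor, and 5.19 in the F/F teratoma, with a bound of -0.15. The second glutamate transporter, Slc17a7, and the acetylcholine transporter Slc18a3 lay below the floor on all 4 arrays. A glutamate and a GABA vesicle transporter gene were therefore above the floor in both tumours. On the receiving side of the synapse, 2 of 12 measured scaffold and kinase genes were at least 2-fold higher in the KO teratoma, the adhesion gene Nlgn1 at 1.51 and the scaffold gene Dlgap1 at 1.46, and 0 were lower. The median was 0.61, and all 12 differences were above 0, as were those of 7025 of all 12197 measured genes.

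Paralogs of the 10 genes gave a mixed picture, beside 3.25% of all genes past 2-fold upward and a median of 0.06 over all genes. Of 29 on the array, 22 were measured in the teratomas, 5 were at least 2-fold higher in the KO teratoma and 0 lower, with a median of 0.34. The 5 were Vamp1 at 2.24, Syt5 at 1.17, Syt17 at 1.13, Syt13 at 1.12 and Syt9 at 1.02. Vamp1, the second neuronal vesicle SNARE, read 7.36 in the KO and 5.12 in the F/F teratoma, the second of these close to its floor. The others did not pass 2-fold. Among them were Sv2b at 0.85, Synpr at 0.60, Syt11 at 0.42, Syt4 at 0.36 and Syn3 at 0.30. Vamp3 read 9.87 in the KO and 10.12 in the F/F teratoma, Vamp8 read 7.89 in the KO and 8.07 in the F/F teratoma, and Stx3 read 8.44 in the KO and 8.90 in the F/F teratoma. The Syt2, Syt6, Syt10, Cplx3, Cplx4 and Sv2c probe sets lay below the floor on all 4 arrays.

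In day 5 embryoid bodies, only some of the release genes were above the floor, 5 of the 10 in the KO and 6 of the 10 in the F/F. On the whole arrays 64.9% of genes in the KO and 65.7% in the F/F reached the floor. Cplx1, Cplx2, Stx1a, Vamp2 and Sv2a were above the floor in both genotypes, and Syt1 only in F/F embryoid bodies. Among 12282 measured genes 2.18% passed 2-fold upward in KO embryoid bodies and 3.98% downward. None of the 6 measured members passed that line, with 3 above 0, 3 below and a median of -0.01. Sv2a had the largest difference, -0.63, or 1.54-fold lower in KO embryoid bodies. The others were 0.29 for Stx1a, 0.22 for Cplx1, 0.11 for Vamp2, -0.13 for Cplx2 and a bound of -0.27 for Syt1. Both probe sets of Stx1a lay above 0, while those of Vamp2 had opposite signs, with 1420833_at at -0.63. The pooled SD between probe sets of the same gene in this comparison was 0.29.

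Some release and neuronal genes outside the 10 did differ in embryoid bodies, where 2.18% of all measured genes passed 2-fold upward and 3.98% downward. In KO embryoid bodies 4 of 29 measured machinery genes were at least 2-fold higher and 0 lower, with a median of 0.18. These were Cadps2 at 2.12 and Cadps at 1.495, which prime dense-core vesicles, and the endocytic genes Amph at 1.71 and Sh3gl2 at 1.09. Of the paralogs, Syt7, a synaptotagmin of many secretory cells, differed by 1.90, reading 8.63 in KO and 6.74 in F/F embryoid bodies. Chga, of endocrine granules, differed by 1.86. Of 15 measured general neuronal genes 3 were higher (Elavl2 at 1.67, Elavl4 at 1.29 and Uchl1 at 1.04) and 1 was lower, the growth cone gene Gap43 at -1.11. Of 10 measured neural progenitor genes 2 were higher and 0 lower, Dll3 at 1.58 and Sox3 at 1.16. The transporter Slc18a2 was above the floor only in F/F embryoid bodies, with 4.60 in the KO and 5.92 in the F/F, and its bound was -1.19. Of the 21 general neuronal genes on the array, 15 were at or above the floor in each kind of embryoid body. Stmn2, for 1, read 8.94 in the KO and 8.23 in the F/F. Map2 and Mapt lay below the floor in both kinds of embryoid body. Tubb3 sat just above it, at 4.79 in the KO and 4.93 in the F/F.

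Between teratoma and embryoid body, all 10 genes were at least 2-fold higher in the teratoma in both genotypes on the probe set used for each. Of 12936 genes measured in the KO comparison 19.8% were at least 2-fold higher in the teratoma, and of 12956 in the F/F comparison 16.2%. A gene under the floor in embryoid bodies entered these counts only through its teratoma reading, so the 10 of 10 is read beside that share and supports nothing further. The median of the 10 was 3.88 in the KO and 2.25 in the F/F, with 5 bounds in the KO and 4 in the F/F. Snap25 was at least 71.0-fold higher in the KO teratoma and at least 28.7-fold higher in the F/F teratoma. Syt1 was at least 84.6-fold higher in the KO teratoma and 33.8-fold in the F/F teratoma. Syn2 was at least 41.5-fold higher in the KO and at least 21.1-fold in the F/F, and Syp at least 32.9-fold in the KO and at least 9.23-fold in the F/F. On the probe sets used, Sv2a, Vamp2, Stx1a and the complexins were above the floor in both tissues, so those folds are not bounds. Sv2a was 16.7-fold higher in the KO teratoma and 4.90-fold in the F/F, and Vamp2 was 10.3-fold in the KO and 4.65-fold in the F/F. The second Vamp2 probe set, 1420833_at, did not match this in the F/F, with log2 differences of 1.05 in the KO and -0.81 in the F/F. Stx1a was 4.52-fold higher in the KO and 4.42-fold in the F/F, Cplx1 5.38-fold in the KO and 2.07-fold in the F/F, and Cplx2 2.84-fold in the KO and 2.24-fold in the F/F. Other probe sets of these genes gave different folds. Stx1a 1448366_at was 2.39-fold higher in the KO and at least 1.83-fold in the F/F. Cplx1 1417746_at was 6.22-fold higher in the KO and 2.68-fold in the F/F, and 1417747_at 1.48-fold and 1.03-fold in that order. Cplx2 1421477_at was 15.98-fold higher in the KO and 11.09-fold in the F/F. The third Cplx2 probe set, 1436383_at, was at least 2.39-fold higher in the KO and gave no difference in the F/F. Syn1 was at least 12.9-fold higher in the KO and at least 4.04-fold in the F/F. Each of these pairs uses both a teratoma array and an embryoid body array that also enter the genotype comparisons above.

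The paralogs had a median difference, teratoma minus embryoid body, of 0.54 in the KO and 0.12 in the F/F. In each genotype 3 of them were at least 2-fold lower in the teratoma, against 9 higher in the KO and 8 in the F/F. For those 3 the log2 differences were -2.40 in the KO and -3.20 in the F/F for Snap23, -2.68 in the KO and -1.82 in the F/F for Stx3, and -2.20 in the KO and -2.11 in the F/F for Vamp8. On the same log2 scale Syt4 was at least 5.91 higher in the KO teratoma and at least 5.57 in the F/F, Syt11 was 4.24 higher in the KO and 3.62 in the F/F, and Vamp4 differed by -0.02 in the KO and -0.14 in the F/F. Over all 37 measured machinery genes the median was 2.16 in the KO and 1.70 in the F/F, and over the 21 general neuronal genes 4.91 in the KO and 4.65 in the F/F. The astrocyte and oligodendrocyte list had medians of 4.16 in the KO and 2.96 in the F/F. Centring each array on its own median moved the median of all genes in these comparisons from -0.15 to -0.46 in the KO and from -0.18 to -0.55 in the F/F. Under that scaling 10 of 10 members in the KO and 8 of 10 in the F/F stayed past 2-fold, with Cplx1 at 0.676 and Cplx2 at 0.795 in the F/F, and all 10 stayed above 0 in both. Of all measured genes, 15.7% in the KO and 11.8% in the F/F were then at least 2-fold higher in the teratoma.

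**Figure D4:**
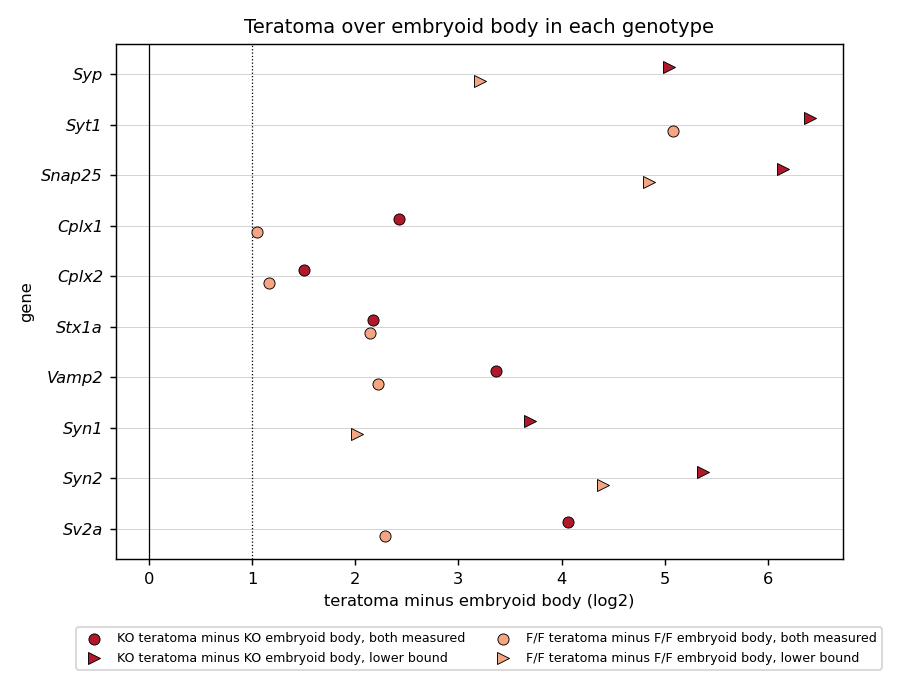
Log2 difference, teratoma minus embryoid body, for each of the 10 genes (rows) within the KO genotype (dark red) and within the F/F genotype (light orange), with triangles for lower bounds where the embryoid body reading lay under its floor. A dotted line marks 2-fold, and every point lies to its right, from 1.05 for Cplx1 in F/F to at least 6.40 for Syt1 in the KO.

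Promoter sequence was read for the members that the RefSeq promoter table (assembly GRCm38.p6) holds, 8 of the 10, with 10 windows in all because Syt1 and Syn2 each have 2. Each window spans 250 bases before to 50 bases after an annotated start. Of these windows 3 are shown, 5' to 3' on the gene's strand, because they hold the motifs searched for: Syn1 has the rare RE1 element, Syn2 the Snail-type E-box and Syp only GC boxes. Syn1 lies at chrX:20920869-20921168 on the minus strand, Syn2 at chr6:115134652-115134951 on the plus strand and Syp at chrX:7638330-7638629 on the plus strand. Capitals mark matches, in Syn1 to the NRF1 core, RE1 and CRE in that order, in Syn2 to the E-box and then GC boxes, and in Syp to GC boxes.
Syn1: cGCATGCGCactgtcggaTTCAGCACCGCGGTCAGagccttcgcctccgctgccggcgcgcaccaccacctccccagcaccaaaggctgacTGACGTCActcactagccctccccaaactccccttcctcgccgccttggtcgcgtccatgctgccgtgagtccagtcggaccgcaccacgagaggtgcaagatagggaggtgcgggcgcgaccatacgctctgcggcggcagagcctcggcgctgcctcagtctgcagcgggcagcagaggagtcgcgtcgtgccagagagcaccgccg
Syn2: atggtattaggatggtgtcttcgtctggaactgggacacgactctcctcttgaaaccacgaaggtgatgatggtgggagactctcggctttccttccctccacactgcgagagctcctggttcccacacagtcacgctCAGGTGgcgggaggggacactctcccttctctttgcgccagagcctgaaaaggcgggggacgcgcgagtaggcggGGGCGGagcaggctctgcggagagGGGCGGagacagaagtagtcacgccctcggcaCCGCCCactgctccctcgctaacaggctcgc
Syp: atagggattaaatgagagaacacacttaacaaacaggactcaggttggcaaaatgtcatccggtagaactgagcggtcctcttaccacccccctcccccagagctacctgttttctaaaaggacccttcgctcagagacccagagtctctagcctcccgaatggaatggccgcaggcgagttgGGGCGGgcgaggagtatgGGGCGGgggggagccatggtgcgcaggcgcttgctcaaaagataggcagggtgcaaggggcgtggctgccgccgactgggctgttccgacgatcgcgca

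All matches were sought on both strands. RE1 is the element bound by REST, a repressor that keeps neuronal genes silent outside neurons. It was searched as its left part TTCAGCACC, a gap of 2 bases and its right part GGNCAG. It occurred in 7 of 32851 promoter windows of all genes, or 0.0213%, and in 1 of the 10 member windows, that of Syn1, at positions -232 to -216 from the start. The left part alone occurred in 0.371% of all windows, and in the same member window only. CRE, TGACGTCA, the element of cyclic AMP-responsive factors, occurred in 1.79% of windows and in Syn1 at -159 to -152. The NRF1 core, GCATGCGC, occurred in 2.71% of windows and in Syn1 at -249 to -242. CAGGTG, the E-box form that Snail proteins bind, occurred in 20.2% of all windows and in 1 of 10 member windows, Syn2 at -112 to -107. GC boxes, GGGCGG, occurred in 35.7% of windows and in 6 of the 10 member windows. The Syn1 window held 33 CpG sites and 68.3% G or C, whereas the median over all windows was 7 CpG sites. A match is a run of letters, and no occupancy was measured. Rest, which encodes REST, read 8.69 in the KO and 8.75 in the F/F teratoma, against 9.81 in KO and 9.53 in F/F embryoid bodies. It was 2.17-fold lower in the KO teratoma than in KO embryoid bodies and 1.72-fold lower in the F/F pair, and differed by -0.06 between the teratomas.

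**Figure D5:**
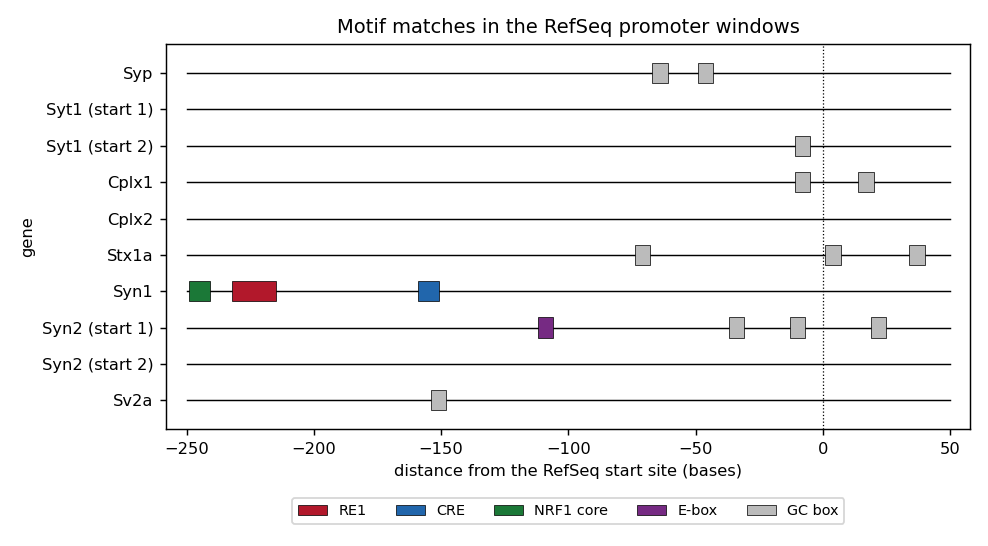
Positions of the searched motifs in the promoter windows of the members (rows), as distance in bases from the annotated start on the horizontal axis, with 1 mark per match. Syn1 alone holds RE1, CRE and NRF1 core marks, Syn2 alone an E-box mark, and GC box marks appear in 6 of 10 windows.

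To ask which other genes ran closest to the members, the 4 floored values of each of 13292 genes were centred on their own mean and set against the median centred profile of the 10 genes by Euclidean distance. That profile was 2.22 in the KO teratoma, 0.97 in the F/F teratoma, -1.66 in KO embryoid bodies and -1.44 in F/F embryoid bodies. The 6 nearest genes were Syngr3 at a distance of 0.08, Oprl1 at 0.18, Scrg1 at 0.18, Nalcn at 0.20, Slc6a11 at 0.20 and Rgs17 at 0.25. Syngr3 encodes a synaptic vesicle protein, Oprl1 the nociceptin receptor, Nalcn a sodium leak channel of neurons, Slc6a11 a GABA transporter and Rgs17 a regulator of G protein signalling. Members themselves lay farther out, from Sv2a at 0.30 to Syt1 at 2.60. The likeness rests on 4 arrays, and genes that are low in embryoid bodies and high in both teratomas share that shape.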

How the data were processed

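The deposited table holds log2 expression by probe set for an Affymetrix mouse array, made by the authors with the affy package and RMA per the submitters' processing notes. RMA corrects background, normalizes by quantiles and summarises probes. Tool versions, and whether all arrays went through it at once, were not given in the sources used here. Arrays have no read depth, so their number, 1 per group, limits the precision.

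Of 45101 probe sets, 64 were controls, 34945 named 1 gene, 932 several and 9160 none. RefSeq held the Entrez number of 34741 single-gene probe sets, with 0 symbols updated. Differences were taken with Python 3.11.15, numpy 2.4.6 and pandas 2.3.3 on floored log2 values, and the code was tested on simulated data. No genome was used. Gene lists give counts and medians beside those of all genes. Genes that may be named are the members, paralogs and transporters, per other list the 6 with the highest mean level and those past 2-fold between genotypes, Snai1, Rest and the 6 nearest profiles. Markers named for lying at or under the floor (Map2, Mapt, Tubb3, Mog, Gcg, Acan, Krt20, Vil1), and Zfp42, were chosen after their values were seen. The members and lists were chosen with earlier results of these data known. In all 9 alternatives were tried, on the floor, the probe set per gene, the scaling and the threshold. Probe sets with the suffix _x_at, _s_at or _a_at are called shared-sequence, and what they share was not checked.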

Additional observations from a re-analysis of the deposited data

Results flagged for a closer look

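Several genes differed between genotypes in opposite directions in teratomas and in embryoid bodies, with at least 1 side past 2-fold. With 1 array per group the difference between the tissues was not tested. The pooled SD between probe sets of the same gene was 0.28 in teratomas and 0.29 in embryoid bodies. Several of the smaller differences below are less than that. Of the members, Sv2a (probe set 1423406_at) differed, KO minus F/F on the log2 scale, by 1.15 in teratomas and by -0.626 in embryoid bodies. The Syt1 probe set 1433884_at differed by 1.05 in teratomas, with a bound of -0.274 in embryoid bodies. The Vamp2 probe set 1420833_at differed by 1.23 in teratomas and -0.629 in embryoid bodies, while the brighter Vamp2 probe set was above 0 in both.

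Among paralogs, release machinery and transporters, Vamp1 differed by 2.24 in teratomas, with a bound of -0.121 in embryoid bodies. Rph3a differed by 1.42 in teratomas, with a bound of -0.388 in embryoid bodies. Syngr1 differed by 1.60 in teratomas and -0.267 in embryoid bodies, Syngr3 by 1.20 in teratomas and -0.232 in embryoid bodies, and Dnm1 by 1.13 in teratomas and -0.39 in embryoid bodies. Slc18a2 differed by 0.856 in teratomas, with a bound of -1.19 in embryoid bodies.

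Among the cell type markers, Gap43 differed by 0.553 in teratomas and -1.11 in embryoid bodies, and Elavl4 by -0.229 in teratomas and 1.29 in embryoid bodies. Sox3 differed by -0.173 in teratomas and 1.16 in embryoid bodies, and Dll3 by -0.418 in teratomas and 1.58 in embryoid bodies. Eomes differed by -0.864 in teratomas and 1.72 in embryoid bodies, Sox17 by -1.42 in teratomas and 1.23 in embryoid bodies, and Col2a1 by -0.137 in teratomas and 1.67 in embryoid bodies.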

How the results depend on the processing

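In teratomas all measured members stayed above 0, KO minus F/F, under each of the 7 floor, probe set and scaling alternatives, the lowest being 0.0883 for Cplx2 after quantile normalization of the 4 arrays. Cplx1, Vamp2 and Sv2a stayed past 2-fold in all of them, as did Syn1 where it had a value. The count past 2-fold was 4 of 10 with the mean of a gene's probe sets, where Syp stood at 0.702, Snap25 at 0.988 and Syt1 at 0.997. It was 6 of 9 without shared-sequence probe sets, which leaves Syn1 with none, and 6 of 10 after quantile normalization, with Syt1 at 0.95. With each array centred on its median it was 8 of 10, with Syn2 at 1.03. The shares of all genes past 2-fold upward were 2.41% with the mean of probe sets and 3.41% without shared-sequence probe sets. They were 3.07% after quantile normalization and 3.64% with centred arrays. In embryoid bodies 0 members passed 2-fold under any alternative, and Vamp2 ranged from -0.259 to 0.11.

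The member median for KO teratoma over KO embryoid bodies was 2.27 with the mean of probe sets, against 3.88. That for F/F teratoma over F/F embryoid bodies was 3.21 without shared-sequence probe sets, against 2.25. In the F/F comparison 9 members passed with the floor at the 65th percentile (Syn1 at 0.522), and 8 each with the mean of probe sets, without shared-sequence probe sets (of 9) and with centred arrays. The shares of all genes at least 2-fold higher there were 13.2% with that floor and 13.3% with the mean of probe sets. They were 17.3% without shared-sequence probe sets and 11.8% with centred arrays.

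Over all genes, the KO teratoma had 397 higher and 131 lower genes than the F/F teratoma, so 75.2% of calls were higher. The split was 374 and 206 (64.5%) after quantile normalization, 262 and 76 with the floor at the 65th percentile, and 86 were lower with the mean of probe sets. KO embryoid bodies had 169 higher and 310 lower genes with that floor, against 268 and 489. Centring left 2036 higher and 3786 lower genes in KO teratoma over embryoid bodies (35% higher, against 50%), and 1533 and 4100 in the F/F pair (27.2%, against 46.1%). A line at 1.5-fold gave 1256 higher and 616 lower in the KO teratoma and 850 and 1024 in KO embryoid bodies, with 4295 lower in KO and 4324 in F/F teratoma against embryoid bodies. At 4-fold they were 35 and 14 in the KO teratoma, 26 and 124 in KO embryoid bodies, 1272 and 538 for KO teratoma over embryoid bodies and 966 and 424 for F/F. With thresholds chosen after seeing the data, 8 of 10 members passed 1.5-fold and 0 passed 4-fold in the KO teratoma over the F/F teratoma. In KO embryoid bodies 1 of 6 measured members, Sv2a, was 1.5-fold lower. Over all genes, 1256 of 12197 measured passed 1.5-fold upward in the KO teratoma, and 1024 of 12282 were 1.5-fold lower in KO embryoid bodies. No result changed sign past the threshold. The causes of these shifts were not tested.

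No paired analysis was possible because each group has 1 array. Readings near the floor cannot show a difference, which limits the embryoid body values of Syp, Snap25, Syn1, Syn2 and Syt1.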
